A study of Mus musculus with 6 samples.

Results

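The cytochrome P450 family 2 genes of the mouse were followed in the livers of ethanol-fed mice that carried floxed Cd44 with a myeloid Cre, set against littermates without Cre. The family was taken as every protein-coding gene of the count table whose symbol in GENCODE M21 (mouse genome build GRCm38) is Cyp2 followed by a letter and a number, leaving out Cyp2e1. This gave 47 genes of 54532 in the table, in the 12 subfamilies Cyp2a, b, c, d, f, g, j, r, s, t, u and w. Of these, 34 had enough counts to be tested and 13 had not. Bulk RNA sequencing of whole liver was available for 3 knockout and 3 control mice, 1 library per mouse. The knockout mice were C57BL/6J/Rj with the genotype LysMcre/+ Cd44flox/flox, in which Cre is expressed from the lysozyme locus Lyz2, active in macrophages, monocytes and granulocytes. Their littermate controls, called WT in the labels, were LysM+/+ Cd44flox/flox, so both groups carried the floxed gene and only the knockouts carried Cre and the altered Lyz2 allele. Every mouse in both groups was kept for 10 days on a Lieber-DeCarli liquid diet that held 6% ethanol (volume), was gavaged with ethanol at 5 g per kg on day 11, and was killed 9 h after that dose. Age and sex are not given in the labels. No livers with Cre alone and no livers without ethanol were analysed here, so Cd44 loss, Cre and the altered Lyz2 allele cannot be told apart, and nor can the effect of ethanol itself be read.

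Cytochromes P450 are heme enzymes of the endoplasmic reticulum that insert an oxygen atom into their substrates, with electrons passed on by cytochrome P450 reductase and, for some reactions, cytochrome b5. Family 2 is the largest in the mouse, lies mostly in clusters of tandem copies, and holds enzymes for drugs and other foreign compounds, steroids, bile acids and fatty acids such as arachidonate. Hepatocytes are its main source in the liver. Many members are set by the nuclear receptors CAR and PXR, by hepatocyte factors such as HNF4-alpha, and by the pulse pattern of growth hormone, which makes several of them higher in one sex, and many differ between the pericentral and periportal ends of the liver lobule.

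Libraries held 18428224 to 24042917 counts, so that 3 counts corresponded to 0.119 to 0.148 CPM (read counts scaled to a common library size) in 1 liver. Cd44 stood at 2.11, 1.92 and 3.01 CPM in the knockout livers, against 32.6, 34.8 and 26.4 CPM in the control livers (log2 fold change −3.73, adjusted p = 9.07e-05), and Lyz2 was 4.48-fold lower in the knockouts. The Y-linked transcripts Ddx3y, Uty, Kdm5d and Eif2s3y had 0 counts in all 6 libraries and Xist lay between 485 and 676 CPM in the knockouts, against 354 to 429 CPM in the controls, as in female mice. Markers of hepatocytes and of myeloid, endothelial, stellate and bile duct cells were detected, as whole liver would hold. In bulk tissue, fewer cells of a type and less RNA per cell cannot be told apart, and this applies to each level below.

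Family 2 transcripts were more abundant in the knockout livers. Of the 34 members tested, 22 were higher in the knockouts and 0 were lower, while 12 did not pass (edgeR's quasi-likelihood test, Benjamini-Hochberg adjusted p under 0.05 over all genes tested). Over all 14758 genes tested, 11.9% were higher and 13.1% lower by the same rule. The count of lower members was also 0 at an unadjusted p under 0.05, with DESeq2 and with limma-voom. A log2 fold change of at least 1 together with the test was reached by 17 members, against 4.61% of all genes. The median log2 fold change of the members was 1.14, against −0.01 over all genes tested. Scaling by library totals in place of TMM moved the median of all genes to −0.26, and 19 members were then higher and 0 lower. The members together took 1.71%, 1.63% and 1.39% of all counts in the knockout livers, against 0.483%, 0.899% and 0.896% in the control livers. All 3 knockout livers lay above all 3 controls, and control liver 1 was the lowest of the 6. The mean share was 1.58% ± 0.167 in the knockouts and 0.759% ± 0.239 in the controls (SD, n = 3 each), a ratio of 2.08, and 1.76 without control liver 1. Of 11 hepatocyte markers, 5 were higher and 6 did not pass. They summed to 118652 to 155312 CPM in the knockouts, against 94521 to 111126 CPM in the controls, of which albumin, Alb, which did not pass (adjusted p = 0.131), gave 72352 to 96513 CPM in the knockouts and 52693 to 60299.5 CPM in the controls. Without Alb the sums overlapped, at 46300.2 to 58799 CPM in the knockouts and 41252 to 50827 CPM in the controls. The 12 myeloid markers summed to 271 to 530 CPM in the knockouts, against 911 to 964 CPM in the controls, and 11 of them were lower. Their part in the P450 result was not tested.

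Most members had a positive fold change, of unlike size. Positive log2 values were found for 32 of the 34 tested members and negative ones for 2, Cyp2c55 and Cyp2t4, neither of which passed. The 3 knockout values lay wholly above the 3 control values for 23 members and wholly below them for 1, and overlapped for 10. Over all genes tested, 21.4% lay wholly above and 22.5% wholly below, 43.8% in all. Among the 33 members with a mean of at least 1 CPM, control liver 1 was the lowest control for 25, knockout liver 3 was the lowest knockout for 19 and knockout liver 2 the highest for 17. The values below are CPM with library sizes scaled by edgeR's TMM factors, and fold changes are knockout over control.

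**Figure D1:**
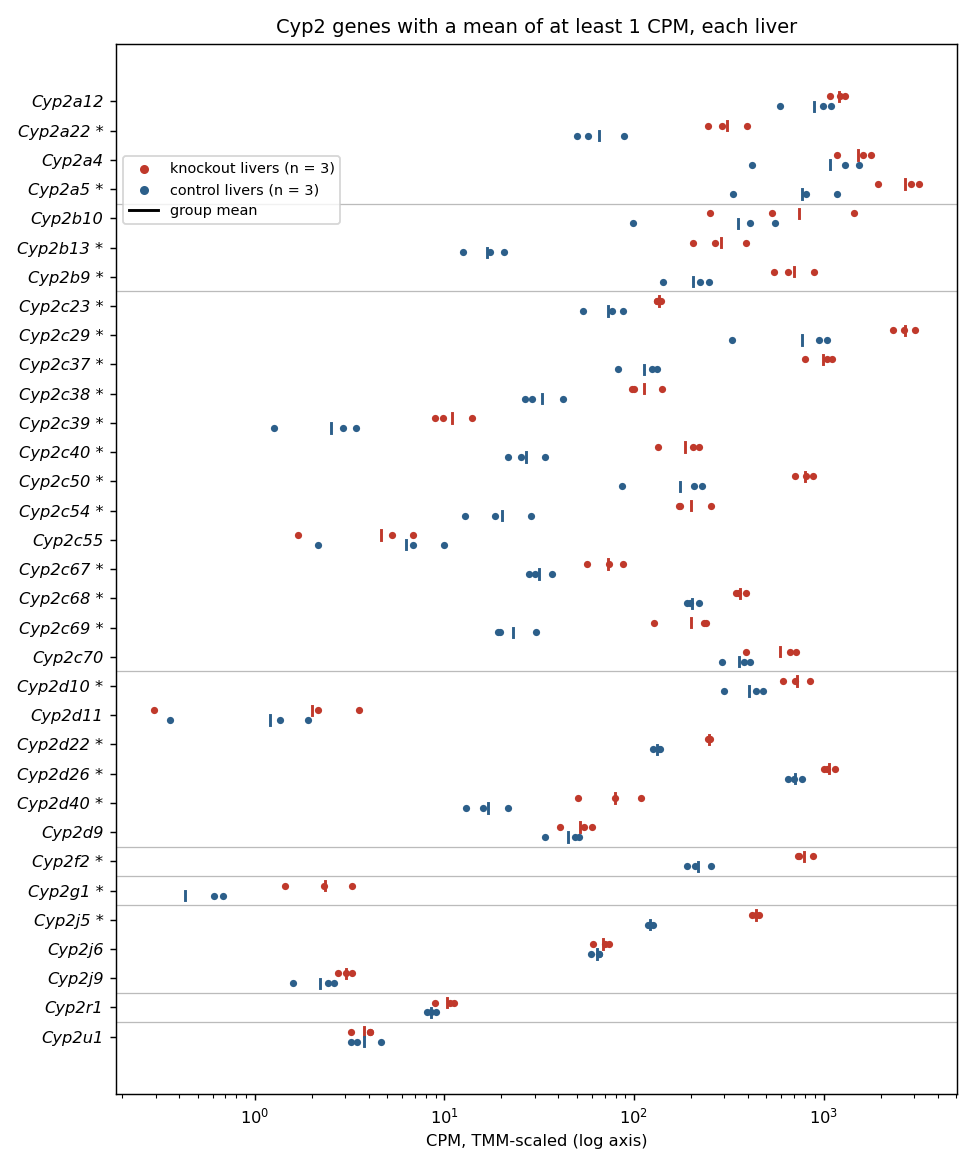
Level of each family 2 gene with a mean of at least 1 CPM, 1 point per liver on a log axis of TMM-scaled CPM, with knockout livers (red) above control livers (blue) and a vertical tick at each group mean (n = 3 each); an asterisk marks an adjusted p under 0.05. All red points stand to the right of the blue ones for 23 genes, while the groups of Cyp2a4, Cyp2a12, Cyp2b10, Cyp2c55, Cyp2c70, Cyp2d9, Cyp2d11, Cyp2j6, Cyp2r1 and Cyp2u1 overlap. Cyp2g1 had 0 counts in control liver 1, which has no place on a log axis.

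The Cyp2b genes gave the largest fold change of the family. Cyp2b13 and Cyp2b9 are steroid and drug hydroxylases known in mice as female-predominant liver genes, and Cyp2b10 is the classic target of CAR, the receptor of phenobarbital-like inducers. Cyp2b13 (ENSMUSG00000040583, chr7:26061497-26096197, plus strand) stood at 269, 389.98 and 205 CPM in the knockout livers, against 20.7, 17.3 and 12.6 CPM in the control livers. The lowest knockout was far above the highest control, and the fold was 17.04 (log2 4.09, SE 0.29, adjusted p = 0.000185). Cyp2b9 (ENSMUSG00000040660, chr7:26173411-26210661, plus strand), its neighbour, stood at 650.3, 889.9 and 545 CPM in the knockouts, against 142, 250.3 and 223 CPM in the controls. Its groups did not overlap either, and the fold was 3.39 (log2 1.76, SE 0.25, adjusted p = 0.00256). The ratio of Cyp2b9 to Cyp2b13 counts was 2.41, 2.28 and 2.66 in the knockouts, against 6.86, 14.5 and 17.7 in the controls. Cyp2b10 (ENSMUSG00000030483, chr7:25897620-25926624, plus strand) stood at 532, 1451 and 252 CPM in the knockouts, against 98.4, 553 and 410.1 CPM in the controls. Knockout liver 2 was the highest of the 6 and knockout liver 3 lay below 2 of the controls, and the log2 value of 1.07 (SE 0.70) did not pass (adjusted p = 0.300). Without knockout liver 2 it was 0.15 (SE 0.60, adjusted p = 0.886). Cyp2b19 and Cyp2b23 had too few counts to be tested.

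The promoters of these 3 genes are shown because Cyp2b13 and Cyp2b9, with folds of 17.04 and 3.39, have nearly the same sequence upstream of their starts. Each window runs from 250 bases before to 50 bases after the RefSeq start of the gene on GRCm38.p6, 5′ to 3′ on the plus strand, with the nuclear receptor half-site letters AGGTCA in capitals. The windows are chr7:26061245-26061544 for Cyp2b13, chr7:26173159-26173458 for Cyp2b9 and chr7:25897408-25897707 for Cyp2b10.
Cyp2b13: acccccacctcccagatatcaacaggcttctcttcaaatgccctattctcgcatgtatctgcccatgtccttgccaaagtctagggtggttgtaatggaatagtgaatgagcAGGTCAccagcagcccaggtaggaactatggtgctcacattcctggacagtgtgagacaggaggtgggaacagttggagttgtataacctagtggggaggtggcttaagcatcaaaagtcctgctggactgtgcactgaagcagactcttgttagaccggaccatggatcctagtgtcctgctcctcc
Cyp2b9: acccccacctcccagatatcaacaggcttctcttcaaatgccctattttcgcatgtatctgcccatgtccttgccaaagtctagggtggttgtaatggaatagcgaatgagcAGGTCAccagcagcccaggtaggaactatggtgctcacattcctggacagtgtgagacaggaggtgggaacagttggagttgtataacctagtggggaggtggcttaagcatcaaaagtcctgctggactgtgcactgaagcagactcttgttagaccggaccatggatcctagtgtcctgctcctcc
Cyp2b10: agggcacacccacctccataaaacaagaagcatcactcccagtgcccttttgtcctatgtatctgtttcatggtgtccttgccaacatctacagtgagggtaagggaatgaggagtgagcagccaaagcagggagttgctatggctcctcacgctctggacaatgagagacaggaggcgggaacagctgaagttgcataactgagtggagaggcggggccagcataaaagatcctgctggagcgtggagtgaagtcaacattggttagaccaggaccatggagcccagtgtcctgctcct
The Cyp2b13 and Cyp2b9 windows were 99.3% identical, 298 of 300 bases, and differed by the substitutions C48T and T104C, given with the Cyp2b13 base first and counted from 1 at the first base of the window. Both carried AGGTCA 138 bases before the start. The Cyp2b10 window was 71.7% identical to either and held no match to these letters. The coding sequences of Cyp2b9 and Cyp2b13 were 92.7% identical, and those of Cyp2b10 and Cyp2b13 were 87.2% identical.

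The Cyp2a genes are few but abundant, and 2 of the 4 rose. Summed per kb of exon, they stood at 2946, 2533 and 2341 CPM per kb in the knockout livers, against 587, 1479.5 and 1753 CPM per kb in the control livers. Cyp2a5 (ENSMUSG00000005547, chr7:26835305-26843548, plus strand), the coumarin hydroxylase and mouse counterpart of the nicotine-oxidising human CYP2A6, stood at 3197, 2899.99 and 1930.2 CPM in the knockouts, against 334, 809.7 and 1174 CPM in the controls. Every knockout lay above every control, and the fold was 3.46 (log2 1.79, SE 0.41, adjusted p = 0.0161). It did not pass when knockout liver 1 (adjusted p = 0.0528) or control liver 2 (adjusted p = 0.0531) was left out. Cyp2a4 (ENSMUSG00000074254, chr7:26307169-26315088, plus strand), a testosterone hydroxylase, stood at 1624, 1171 and 1782 CPM in the knockouts, against 419, 1295 and 1536 CPM in the controls. The groups overlapped, with control liver 1 well below the other 5 livers, and the log2 value of 0.49 (SE 0.41) did not pass (adjusted p = 0.419). The ratio of Cyp2a5 to Cyp2a4 counts was 1.97, 2.48 and 1.08 in the knockouts, against 0.798, 0.625 and 0.764 in the controls. These counts are not divided by exon length, which is 2073 bases for Cyp2a5 and 1738 bases for Cyp2a4. Per kb of exon, Cyp2a5 lay above Cyp2a4 in knockout livers 1 and 2. It lay below Cyp2a4 in knockout liver 3 (931 against 1025 CPM per kb) and in every control.

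These 2 genes are near copies, and their promoters are shown because of that. The windows are chr7:26835089-26835388 for Cyp2a5 and chr7:26306942-26307241 for Cyp2a4, both on the plus strand, with the reverse complement of AGGTCA in capitals.
Cyp2a5: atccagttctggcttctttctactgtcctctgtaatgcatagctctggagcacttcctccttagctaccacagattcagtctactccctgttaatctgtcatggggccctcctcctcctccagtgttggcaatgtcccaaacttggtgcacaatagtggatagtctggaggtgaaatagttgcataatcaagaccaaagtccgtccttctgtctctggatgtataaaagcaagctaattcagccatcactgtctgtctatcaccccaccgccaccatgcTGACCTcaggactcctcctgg
Cyp2a4: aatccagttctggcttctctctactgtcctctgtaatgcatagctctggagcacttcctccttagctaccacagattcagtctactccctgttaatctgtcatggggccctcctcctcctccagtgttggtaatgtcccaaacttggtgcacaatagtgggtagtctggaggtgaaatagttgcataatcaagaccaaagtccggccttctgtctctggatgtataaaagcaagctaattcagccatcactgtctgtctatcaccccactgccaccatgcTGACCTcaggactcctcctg
The windows were 97.7% identical and the coding sequences 98.5% identical, and in both windows the match lay after the start, at 29 bases in Cyp2a5 and 30 bases in Cyp2a4. How reads with several matching places were counted is not given in the sources used here, so the division of counts between Cyp2a5 and Cyp2a4 is uncertain. With their counts summed, the pair had a log2 value of 1.20 (SE 0.40) and did not pass (adjusted p = 0.0619).

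Cyp2a22 (ENSMUSG00000091867, chr7:26931631-26939384, minus strand) stood at 393, 292 and 246 CPM in the knockout livers, against 50.2, 88.9 and 57.0 CPM in the control livers. All knockouts were above all controls, and the fold was 4.75 (log2 2.25, SE 0.25, adjusted p = 0.00106). Cyp2a12 (ENSMUSG00000060407), a hydroxylase of testosterone and bile acids, stood at 1226, 1299 and 1083 CPM in the knockouts, against 588, 1099.8 and 989 CPM in the controls. The lowest knockout lay just below the highest control, and the log2 value of 0.43 did not pass (adjusted p = 0.204). These genes are 97.0% identical in their coding sequences, and with their counts summed the log2 value was 0.68 and did not pass (adjusted p = 0.0651). The level of Cyp2a22 by itself is therefore uncertain. Genes on the opposite strand that overlap Cyp2a22 and Cyp2a4 held at most 4.31 and 3.61 CPM in any liver.

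**Figure D2:**
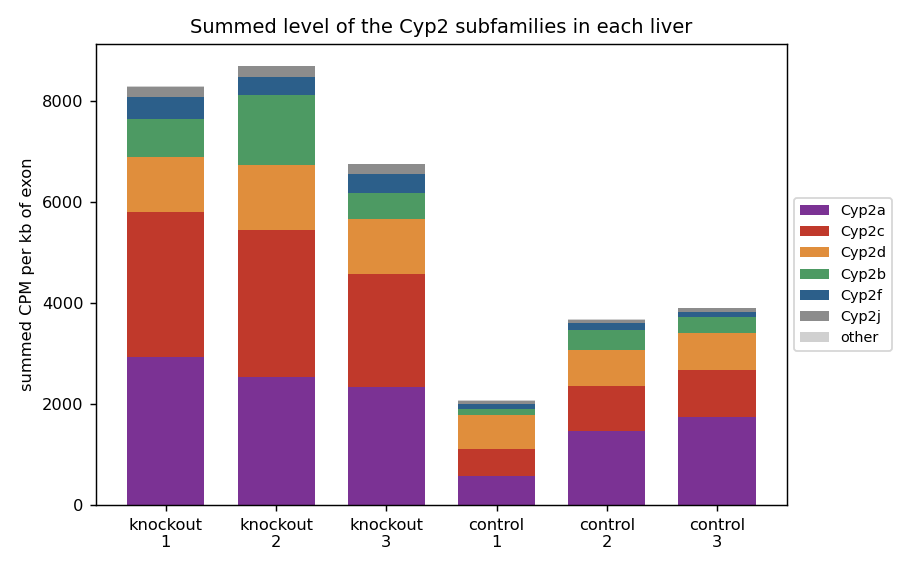
Summed level of each family 2 subfamily in each liver, as TMM-scaled CPM per kb of exon stacked from 0, with the 3 knockout livers left of the 3 control livers. The Cyp2c segment stands at 2857, 2909 and 2245 CPM per kb in the knockouts, against 529, 874 and 933 CPM per kb in the controls; control liver 1 has the shortest bar.

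The Cyp2c genes, enzymes of drugs, steroids and polyunsaturated fatty acids, are the largest subfamily. Of 15 members, 13 were tested, 11 were higher and 2 did not pass. Most abundant per kb of exon was Cyp2c29, an arachidonate epoxygenase that CAR activators induce. Cyp2c29 (ENSMUSG00000003053, chr19:39269405-39330713, plus strand) stood at 3043, 2669 and 2319 CPM in the knockout livers, against 328, 943 and 1042 CPM in the control livers. The groups were wholly apart, and the fold was 3.47 (log2 1.80, SE 0.38, adjusted p = 0.0120). Next to it on the chromosome, Cyp2c38 rose 3.46-fold, with 100.004, 97.6 and 141 CPM in the knockouts, against 28.9, 26.8 and 42.1 CPM in the controls. Cyp2c39, a retinoic acid hydroxylase, was a low-level member that rose 4.29-fold, at 9.88, 14.0 and 8.92 CPM in the knockouts, against 3.42, 1.26 and 2.91 CPM in the controls. Both Cyp2c38 and Cyp2c39 had groups that did not overlap (adjusted p = 0.00122 and 0.00421), and since they are 94.2% identical in their coding sequences, the low level of Cyp2c39 is uncertain.

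Cyp2c37, Cyp2c50 and Cyp2c54 lie side by side, are 95.1% to 96.1% identical in their coding sequences, and form epoxides and hydroxides of arachidonate and linoleate. Cyp2c37 (ENSMUSG00000042248, chr19:39992424-40012243, plus strand) stood at 1049, 1115 and 802 CPM in the knockout livers, against 82.3, 124 and 133 CPM in the control livers. That was an 8.73-fold rise with little spread inside either group (log2 3.13, SE 0.23, adjusted p = 0.000211). Cyp2c54 (ENSMUSG00000067225, chr19:40037940-40073827, minus strand) stood at 174, 255 and 173 CPM in the knockouts, against 12.9, 28.7 and 18.5 CPM in the controls. Its 10.0-fold rise was the second largest of the family by the fitted value (log2 3.33, SE 0.30, adjusted p = 0.000565). Cyp2c50 (ENSMUSG00000054827, chr19:40089688-40113950, plus strand) stood at 804, 881 and 706 CPM in the knockouts, against 86.6, 206 and 229 CPM in the controls. It rose 4.58-fold (log2 2.19, SE 0.33, adjusted p = 0.00298). The ratio of Cyp2c37 to Cyp2c50 counts, not divided by exon length, was 1.303, 1.27 and 1.14 in the knockouts, against 0.950, 0.602 and 0.580 in the controls. Cyp2c50 is the longer, at 2918 bases of exon against 1824. Per kb, Cyp2c37 was the higher in every knockout. In the controls it stood at 45.1, 68.1 and 72.9 CPM per kb, against 29.7, 70.7 and 78.6 CPM per kb for Cyp2c50. The division of reads among the 3 copies is uncertain, but their summed counts also passed, with a log2 value of 2.71 (SE 0.29, adjusted p = 0.000942).

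A second run of close copies, Cyp2c67, Cyp2c68, Cyp2c40 and Cyp2c69, lies on the minus strand between Cyp2c39 and Cyp2c37. Cyp2c40 is known to hydroxylate arachidonate, and Cyp2c40 and Cyp2c69 are female-predominant in mouse liver. Cyp2c69 (ENSMUSG00000092008, chr19:39842814-39886799) stood at 235, 240.2 and 127 CPM in the knockout livers, against 19.1, 30.4 and 19.6 CPM in the control livers. It rose 8.72-fold (log2 3.12, SE 0.29, adjusted p = 0.000594), with knockout liver 3 the lowest knockout yet far above every control. Cyp2c40 (ENSMUSG00000025004, chr19:39767071-39812814) stood at 204, 221 and 134 CPM in the knockouts, against 25.5, 33.8 and 21.6 CPM in the controls, a 6.91-fold rise (log2 2.79, SE 0.24, adjusted p = 0.000438). Cyp2c40 and Cyp2c69 followed the same order among the knockouts, with liver 2 highest and liver 3 lowest. Cyp2c67 (ENSMUSG00000062624) stood at 56.9, 73.9 and 87.7 CPM in the knockouts, against 37.1, 27.9 and 30.0 CPM in the controls, a 2.30-fold rise (adjusted p = 0.00311). Cyp2c68 (ENSMUSG00000074882, chr19:39688834-39741054) stood at 347, 388 and 352 CPM in the knockouts, against 189.99, 198 and 220.00 CPM in the controls, a 1.79-fold rise (log2 0.84, SE 0.12, adjusted p = 0.00241). Among the knockouts Cyp2c67 was highest in liver 3 and Cyp2c68 in liver 2, and all 4 genes had groups that did not overlap. Cyp2c67, Cyp2c68 and Cyp2c69 are 96.5% to 97.7% identical in their coding sequences, so the level of each is uncertain. Their summed counts rose by a log2 value of 1.33 (SE 0.13, adjusted p = 0.00076). Cyp2c40 was not in that sum, at 92.3% to 92.6% identity to these copies with gaps counted as differences. It shares an unbroken run of 282 identical bases with Cyp2c69, so the level of Cyp2c40 is uncertain too.

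The promoters of Cyp2c69 and Cyp2c68 are shown as a pair with similar upstream sequence and fitted folds of 8.72 and 1.79. The windows are chr19:39886720-39887019 for Cyp2c69 and chr19:39741052-39741351 for Cyp2c68, both on the minus strand and printed 5′ to 3′ along the gene, with the HNF4 element letters CAAAGTCCA in capitals.
Cyp2c69: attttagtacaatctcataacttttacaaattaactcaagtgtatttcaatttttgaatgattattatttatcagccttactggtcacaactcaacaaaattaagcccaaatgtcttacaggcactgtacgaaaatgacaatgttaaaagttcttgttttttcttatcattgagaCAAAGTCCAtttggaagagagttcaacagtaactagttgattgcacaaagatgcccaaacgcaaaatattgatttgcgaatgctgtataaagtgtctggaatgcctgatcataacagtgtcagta
Cyp2c68: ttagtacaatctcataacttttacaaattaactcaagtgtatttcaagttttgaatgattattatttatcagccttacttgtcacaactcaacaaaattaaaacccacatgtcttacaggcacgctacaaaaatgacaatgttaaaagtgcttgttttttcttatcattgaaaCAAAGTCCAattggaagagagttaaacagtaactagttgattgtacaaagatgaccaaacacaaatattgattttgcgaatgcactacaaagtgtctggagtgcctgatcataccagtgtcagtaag
The windows were 91.1% identical, and the match began 75 bases before the start in Cyp2c69 and 77 bases before it in Cyp2c68. The same letters stood in the windows of Cyp2c40 and Cyp2c67, and also in that of Cyp2c70, which did not pass, and of Cyp2c65, which had 0 counts.

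Of the remaining Cyp2c genes, Cyp2c23 (ENSMUSG00000025197), an epoxygenase also found in kidney, lies apart from the cluster at chr19:44005022-44029208. It stood at 138, 133 and 133 CPM in the knockout livers, against 54.1, 88.1 and 76.3 CPM in the control livers, a 1.85-fold rise with a narrow knockout group (log2 0.89, SE 0.17, adjusted p = 0.00806). Cyp2c70, which makes the muricholic acids of mouse bile, stood at 664, 713 and 388 CPM in the knockouts, against 290.1, 379 and 409 CPM in the controls. Knockout liver 3 lay inside the control range, and the log2 value of 0.71 (SE 0.24) did not pass (adjusted p = 0.0602), though it did with DESeq2 (adjusted p = 0.0142) and when knockout liver 3 was left out (adjusted p = 0.0108). Cyp2c55, a fatty acid hydroxylase better known from the intestine, stood at 6.86, 1.68 and 5.32 CPM in the knockouts, against 2.14, 6.82 and 9.96 CPM in the controls. These groups overlapped throughout (log2 −0.44, SE 0.59, adjusted p = 0.623), and Cyp2c65 and Cyp2c66, at the same end of the cluster, had 0 counts in every liver.

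The Cyp2d genes, whose human relative CYP2D6 handles many drugs, had 4 of 6 tested members higher, 3 of them with folds of 1.51 to 1.88. Cyp2d26 (ENSMUSG00000022445, chr15:82790101-82794294, minus strand), the most abundant of them per length, stood at 1008, 1151 and 1038 CPM in the knockout livers, against 770.2, 651 and 702 CPM in the control livers. Every knockout was above every control, and the fold was 1.51 (log2 0.59, SE 0.13, adjusted p = 0.0152). It did not pass with library totals (adjusted p = 0.0715) or without control liver 2 (adjusted p = 0.0523). Cyp2d10 (ENSMUSG00000094806, chr15:82402846-82407195, minus strand) stood at 708, 844 and 615 CPM in the knockouts, against 297, 482 and 439.6 CPM in the controls. Its 1.78-fold rise (log2 0.83, SE 0.21, adjusted p = 0.0207) did not pass when knockout liver 1 (adjusted p = 0.0581) or knockout liver 2 (adjusted p = 0.0504) was left out, nor with library totals (adjusted p = 0.0560). Cyp2d22 (ENSMUSG00000061740, chr15:82370527-82380260, minus strand) had narrow groups, at 247, 249 and 253 CPM in the knockouts, against 126, 135 and 137 CPM in the controls. It rose 1.88-fold (log2 0.91, SE 0.10, adjusted p = 0.00112).

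Cyp2d40 (ENSMUSG00000068083, chr15:82759833-82764183, minus strand) stood at 50.5, 109 and 79.4 CPM in the knockout livers, against 13.0, 16.01 and 21.8 CPM in the control livers. It had the largest fold of its subfamily, 4.71, and groups that did not overlap (log2 2.23, SE 0.29, adjusted p = 0.00174). Cyp2d9, the testosterone hydroxylase known for male-predominant expression under growth hormone and STAT5b, stood at 40.5, 54.8 and 60.4 CPM in the knockouts, against 34.0, 51.2 and 49.1 CPM in the controls. Its values overlapped and did not pass (log2 0.21, adjusted p = 0.465), and the log2 value turned to −0.04 with library totals. Cyp2d11, 94.7% identical to Cyp2d10 in its coding sequence and therefore uncertain, had low levels, at 0.296 to 3.56 CPM in the knockouts, against 0.357 to 1.91 CPM in the controls, and did not pass (log2 0.74, SE 0.78, adjusted p = 0.527, and log2 0.04 without knockout liver 2). Cyp2d12 and Cyp2d34 had too few counts to be tested.

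Cyp2j5 gave the smallest adjusted p of the family. It is an arachidonate epoxygenase of kidney and liver. Cyp2j5 (ENSMUSG00000052520, chr4:96628773-96664154, minus strand) stood at 441, 459 and 419 CPM in the knockout livers, against 121, 125 and 118 CPM in the control livers. Both groups were narrow and far apart, and the fold was 3.62 (log2 1.86, SE 0.11, adjusted p = 0.000178). Neither tested neighbour passed. Cyp2j6 stood at 70.5, 61.0 and 73.9 CPM in the knockouts, against 59.2, 65.8 and 65.7 CPM in the controls (log2 0.11, adjusted p = 0.538). Cyp2j9, known from brain, stood at 3.26, 3.03 and 2.76 CPM in the knockouts, against 1.59, 2.61 and 2.44 CPM in the controls, a set of values that did not overlap but did not pass (log2 0.45, adjusted p = 0.240). The other 5 Cyp2j genes were not tested, and Cyp2j7, Cyp2j11 and Cyp2j12 had 0 counts in every liver.

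Cyp2f2 (ENSMUSG00000052974, chr7:27119909-27133660, plus strand) activates naphthalene in the airway and is a widely used periportal marker in the liver. It stood at 879, 732 and 741 CPM in the knockout livers, against 191, 254 and 211 CPM in the control livers. No value of one group came near the other, and the fold was 3.59 (log2 1.84, SE 0.16, adjusted p = 0.000438). The antisense gene Gm15883 overlaps it, and whether counting used strand is not known here, but Gm15883 held 4.49 to 7.60 CPM in the knockouts, against 3.26 to 4.57 CPM in the controls. Cyp2g1, known from olfactory mucosa, was barely detected, at 3.26, 1.44 and 2.32 CPM in the knockouts, against 0, 0.677 and 0.609 CPM in the controls. Every knockout was above every control (log2 2.47, SE 0.75, adjusted p = 0.0440), but the call rested on few counts. Without control liver 1 the log2 value was 1.87 (adjusted p = 0.0292). The call was made in 8 of 14 alternatives, with adjusted p from 0.00273 to 0.133 and log2 values from 1.87 to 3.54.

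Cyp2r1, the hydroxylase that starts vitamin D activation in the liver, stood at 11.3, 8.95 and 10.7 CPM in the knockout livers, against 8.46, 8.08 and 9.00 CPM in the control livers. Knockout liver 2 lay within the control range and the gene did not pass (log2 0.28, adjusted p = 0.206). Cyp2u1, a fatty acid hydroxylase, averaged 3.77 ± 0.494 CPM in the knockouts and 3.78 ± 0.759 CPM in the controls (SD, n = 3 each) and did not pass (log2 0.00, SE 0.23, adjusted p = 0.997). Cyp2t4 lay below 1 CPM, at 0.431, 0.144 and 0.197 CPM in the knockouts, against 0.437, 0.580 and 0.652 CPM in the controls. It was the member whose knockout values lay wholly below the control values, by 0.431 against 0.437 CPM at the nearest, and it did not pass (log2 −1.09, SE 0.49, adjusted p = 0.141). It overlaps the more abundant Egln2 on the opposite strand, so its level is uncertain. The 7 untested members with some counts were Cyp2b19, Cyp2b23, Cyp2d12, Cyp2d34, Cyp2j8, Cyp2j13 and Cyp2s1, with at most 46 counts over the 6 livers, and the 6 with 0 counts everywhere were Cyp2c65, Cyp2c66, Cyp2j7, Cyp2j11, Cyp2j12 and Cyp2w1. A count of 0 allows a level of up to 0.119 to 0.148 CPM, counting error only.

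Along the chromosomes, members that passed and members that did not stood next to each other. The chromosome 19 cluster from Cyp2c55 to Cyp2c70 (chr19:39007019-40187333) held 14 members, of which 12 were tested and 10 were higher. Within it, 5 adjacent members, Cyp2c40, Cyp2c69, Cyp2c37, Cyp2c54 and Cyp2c50, had log2 values of 2.19 to 3.33, while Cyp2c67 and Cyp2c68 on one side stood at 1.20 and 0.84 and Cyp2c70 on the other at 0.71. The chromosome 7 cluster from Cyp2s1 to Cyp2t4 (chr7:25802475-27158668) held 13 members of 6 subfamilies, of which 10 were tested and 6 were higher. Cyp2b13 and Cyp2b9 there lie between Cyp2b10 and Cyp2a4, neither of which passed. The chromosome 15 cluster (chr15:82370527-82794294) held 8 Cyp2d genes, of which 6 were tested and 4 were higher. On chromosome 4 (chr4:96027534-96664154), 8 Cyp2j genes held 1 that rose, Cyp2j5, at the end of the row. Of the genes that stand alone, Cyp2c23 rose, Cyp2r1 and Cyp2u1 did not pass, and Cyp2w1 had 0 counts.

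**Figure D3:**
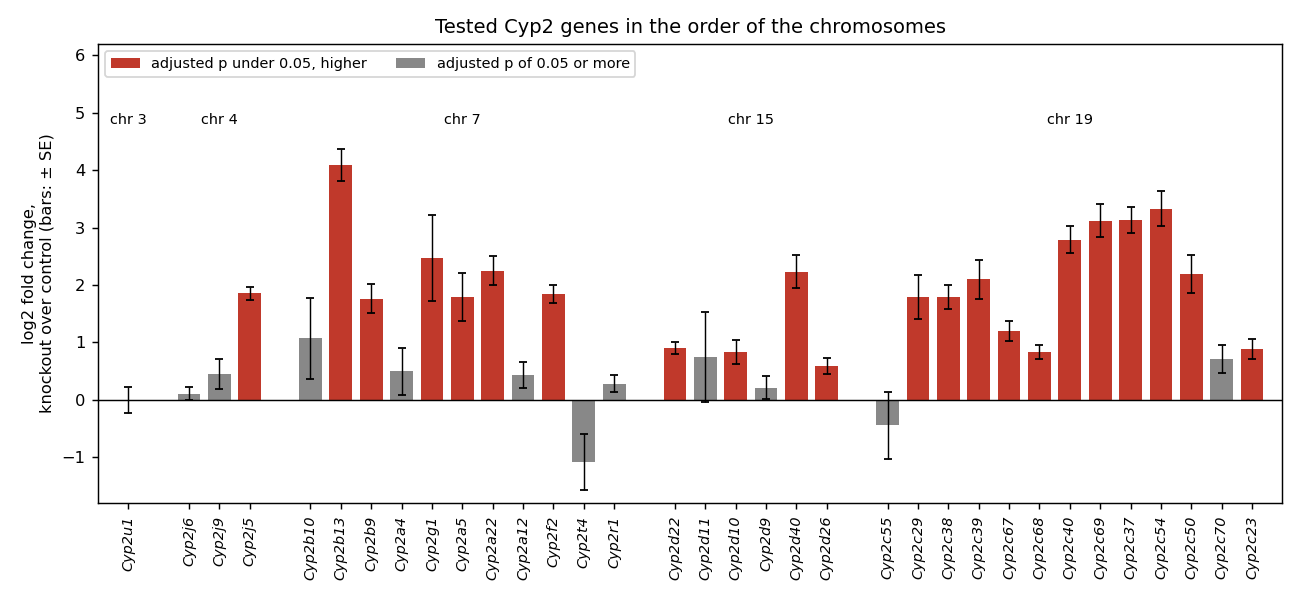
Log2 fold change, knockout over control, of the 34 tested family 2 genes in the order of their positions on each chromosome, with bars of 1 SE either way; red marks an adjusted p under 0.05 and grey the rest. The tallest bars are Cyp2b13 on chromosome 7 (4.09) and the run from Cyp2c40 (2.79) to Cyp2c54 (3.33) on chromosome 19. That run holds no grey bar. Grey bars stand at Cyp2c70, beyond Cyp2c50, and at Cyp2b10 and Cyp2a4, on either side of Cyp2b13 and Cyp2b9.

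Levels per kb of exon, which allow genes to be set beside each other, changed order between the groups. In the knockout livers the order was Cyp2a5 (1291 ± 319.5 CPM per kb, SD, n = 3), Cyp2a4 (878 ± 182), Cyp2c29 (875 ± 118), Cyp2d26 (595 ± 42.2) and Cyp2c37 (542 ± 90.5). In the control livers it was Cyp2a4 (623 ± 338), Cyp2d26 (395 ± 33.5), Cyp2a5 (373 ± 203), Cyp2a12 (258 ± 77.9) and Cyp2c29 (252 ± 126). The means of Cyp2a5 and Cyp2a4, and of Cyp2c29 and Cyp2d26, differed in the knockouts by more than the SD of either gene. All other neighbours in these orders differed by less than the larger SD. Liver by liver, Cyp2a5 stood at 1542, 1399 and 931 CPM per kb in the knockouts, against 935, 674 and 1025 CPM per kb for Cyp2a4. Their order was thus reversed in knockout liver 3, and the division of reads between these 2 near copies is uncertain. Cyp2c37 was the fifth in the knockouts and the 12th in the controls, and Cyp2b13 stood 15th in the knockouts and 26th in the controls. Summed by subfamily, Cyp2d genes held 1099.8, 1302 and 1084 CPM per kb in the knockouts, against 663, 719 and 725 CPM per kb in the controls. The Cyp2b sum was 742, 1369 and 519 CPM per kb in the knockouts, against 133, 405 and 319.7 CPM per kb in the controls. The Cyp2f2 gene gave 434, 362 and 366 CPM per kb in the knockouts, against 94.2, 126 and 104 CPM per kb in the controls. The Cyp2j sum was 209, 213 and 200.2 CPM per kb in the knockouts, against 68.5, 72.6 and 69.3 CPM per kb in the controls.

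Promoter windows were found for 39 of the 47 members among 32544 windows of the RefSeq table for GRCm38.p6, and each was searched on both strands. AGGTCA, the half-site of nuclear receptors, stood in a window at the gene for 7 of 18 members that rose and had a window (Cyp2a5, Cyp2b13, Cyp2b9, Cyp2c29, Cyp2d40, Cyp2f2 and Cyp2j5) and for 3 of 11 tested members that did not pass (Cyp2a4, Cyp2c70 and Cyp2t4), against 16.2% of all windows. In Cyp2a5, Cyp2a4 and Cyp2d40 the letters lay after the start, by 29, 30 and 32 bases, and not upstream of it. Cyp2c39 had 2 windows in the table, and the letters stood in the one outside the gene, chr19:39347096-39347395, and not in the one at its start, chr19:39510572-39510871. CAAAGTCCA, an HNF4 element, stood in 4 of the 18 and 1 of the 11, all in the Cyp2c cluster, against 0.479% of all windows. Close copies share their letters, so these counts are not independent. The STAT element TTCNNNGAA (8.33% of all windows), the C/EBP palindrome TTGCGCAA (0.184%) and the HNF1 palindrome (0.00922%) had 0 matches in either set of windows. No match overlapped another in the windows of tested members, and in Cyp2c70, which held 2 of the motifs, they began 74 and 64 bases before the start. A match is a run of letters in 300 bases and not a measured binding site.

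The counts for the lists below stand beside 11.9% of all genes tested that were higher and 13.1% that were lower. Of 6 electron transfer partners, 3 were higher and 3 did not pass. The higher ones were cytochrome b5, Cyb5a, at 917 ± 84.3 CPM in the knockouts and 536 ± 26.3 CPM in the controls (adjusted p = 0.00478), the outer mitochondrial cytochrome b5, Cyb5b (1.55-fold, adjusted p = 0.0124), and the heme-binding protein Pgrmc1 (1.40-fold, adjusted p = 0.0278). Por, the reductase that all microsomal P450 enzymes need, named after its values were seen, stood at 876, 1414 and 688 CPM in the knockouts, against 589.8, 971 and 978 CPM in the controls. Its groups overlapped and it did not pass (log2 0.23, SE 0.29, adjusted p = 0.603). Of 10 genes of heme synthesis and breakdown, 4 were higher and 6 did not pass. The higher ones were the synthesis enzymes Uros, Cpox and Alad and the heme oxygenase Hmox2, by 1.28-fold to 1.88-fold.

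Among 14 nuclear receptors and hepatocyte factors that act on P450 genes, 8 were higher, 1 was lower and 5 did not pass. The largest change was that of Nr1i3, which encodes CAR, at 57.7, 71.7 and 52.4 CPM in the knockout livers, against 11.6, 12.4 and 16.6 CPM in the control livers. Its groups were far apart, and the fold was 4.47 (log2 2.16, SE 0.18, adjusted p = 0.000414). Foxa2 (2.23-fold, adjusted p = 0.00352), Onecut1 (2.26-fold, adjusted p = 0.00361) and Cebpa (2.12-fold, adjusted p = 0.00469), factors that keep up hepatocyte genes, rose too. Cebpb, a factor of the acute phase response named after its values were seen, was the lower one (log2 −0.92, adjusted p = 0.0274). Hnf4a, which encodes HNF4-alpha and was also named after its values were seen, had groups that overlapped. It did not pass (log2 0.32, SE 0.17, adjusted p = 0.217). Of 15 targets of CAR and PXR outside the family, 5 were higher and 10 did not pass. The higher ones were the bilirubin conjugating enzyme Ugt1a1 (2.40-fold, adjusted p = 0.000755), the carboxylesterase Ces2a (3.05-fold), the glutathione transferase Gstt1 (2.09-fold), the sulfotransferase Sult1d1 (2.50-fold) and, named after its values were seen, the transporter Abcc3 (1.38-fold). Of the 2 members linked to CAR above, Cyp2c29 passed (3.47-fold, adjusted p = 0.0120) and Cyp2b10 did not (log2 1.07, SE 0.70, adjusted p = 0.300). The part of CAR in the levels of the members was not tested.

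Genes of growth hormone signalling and of sex-dependent liver expression were read beside the members. Sex labels were given above to some members only, so the members were not counted by sex. Of 10 genes of growth hormone signalling, 5 were higher and 1 was lower. Igfals, the partner of circulating IGF-1, rose 3.67-fold (adjusted p = 0.000179), the receptor Ghr 2.66-fold (adjusted p = 0.000755), Igf1 1.85-fold (adjusted p = 0.00425) and the female-predominant factor Cux2 4.32-fold (adjusted p = 0.0142). Jak2, the kinase of the receptor, named after its values were seen, was the lower one (log2 −0.53, adjusted p = 0.0223). Of 14 female-predominant liver genes outside the family, 10 were higher and 4 did not pass, with a median log2 of 2.72. They included the sulfotransferases Sult2a1 (11.7-fold, adjusted p = 3.52e-05) and Sult2a2 (3.99-fold) and the flavin monooxygenase Fmo2 (3.18-fold). Of 10 male-predominant genes 6 were tested, with a median log2 of −0.20, and the rest had too few counts. Cyp7b1 was higher (2.46-fold, adjusted p = 0.00442), Selenbp2 lower (log2 −1.17, adjusted p = 0.0407) and 4 did not pass. Some of these genes were known to have risen when the lists were drawn up, so their counts are a description and no independent support.

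Markers of both ends of the lobule were read beside the members. Of 10 pericentral hepatocyte markers, 8 were higher and 2 did not pass, with a median log2 of 1.72. Glutamine synthetase, Glul, stood at 1034, 1119 and 1338 CPM in the knockout livers, against 298, 146 and 308 CPM in the control livers (4.64-fold, adjusted p = 0.00149), and Slc1a2 (7.06-fold), Oat (3.84-fold) and Axin2 (2.61-fold) also passed. Of 10 periportal markers, 3 were higher and 1 lower, with a median log2 of 0.12: Hal (2.89-fold, adjusted p = 0.00117), Gls2 and Cps1 rose and Cdh1 fell (log2 −1.13, adjusted p = 0.00692). Cyp2f2, a periportal marker as given above, rose 3.59-fold. The other members were not sorted by zone here, so Cyp2f2 does not stand for the family. Of 12 acute phase genes, 1 was higher and 3 were lower, against 11.9% and 13.1% of all genes tested. Crp was higher (1.93-fold, adjusted p = 0.00691). The lower ones were Il1rn (log2 −1.79, adjusted p = 0.00157), Hamp (log2 −3.63, adjusted p = 0.00215) and Lcn2 (log2 −2.43, adjusted p = 0.00784). Of 9 stellate cell markers, 3 were lower, 1 was higher and 5 did not pass. Acta2, the smooth muscle actin of activated stellate cells and of vessel walls, stood at 1.01, 0.481 and 1.33 CPM in the knockout livers, against 4.41, 14.4 and 4.74 CPM in the control livers (log2 −3.05, adjusted p = 0.00671). Pdgfrb (log2 −0.81, adjusted p = 0.00380) and Des (log2 −0.67, adjusted p = 0.0160) were lower, and Ecm1 was higher (1.61-fold, adjusted p = 0.0158). The stellate markers summed to 668 to 740 CPM in the knockouts, against 598 to 735 CPM in the controls. None of 10 endothelial or of 6 tested cholangiocyte markers passed. The summed level of the 10 endothelial markers was 288 to 423 CPM in the knockouts, against 359 to 394 CPM in the controls, and that of all 7 cholangiocyte markers 66.7 to 74.4 CPM in the knockouts, against 72.8 to 74.8 CPM in the controls. The part of any of these shifts in the levels of the P450 genes was not tested.

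**Figure D4:**
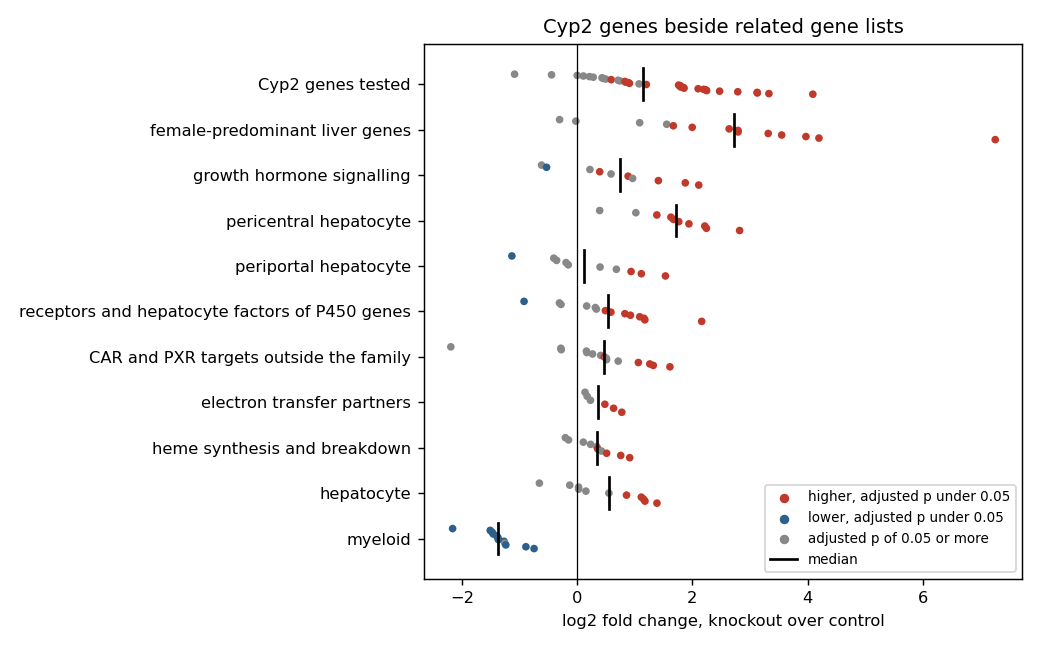
Log2 fold change, knockout over control, of each tested family 2 gene and of each tested gene of 10 related lists, 1 point per gene, with a tick at each list's median; red and blue mark genes higher or lower at an adjusted p under 0.05, grey the rest. The family's median of 1.14 lies between those of the female-predominant (2.72) and pericentral (1.72) lists and that of growth hormone signalling (0.74), and the myeloid points all lie below 0. Among the lists not drawn is the male-predominant one, with a median of −0.20.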

How the data were processed

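RNA was sequenced from whole liver of 3 knockout and 3 control mice. Poly-A RNA was captured on poly-T beads and reverse transcribed from random primers, per the labels' protocols. The authors deposited unnormalized counts of reads for each Ensembl gene, with a column for each mouse. The submitters' processing notes list featureCounts 1.5.0-p3, HISAT2 2.0.5 and StringTie 1.3.3b and the build GRCm38.p6, with no role or order. Strand setting, annotation release and the counting of reads that map to several places are not given in the sources used here, so close copies and genes overlapped on the other strand are uncertain.

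Identifiers were matched to GENCODE M21 (54495 of 54532 genes). Genes were filtered with filterByExpr by group, scaled with TMM (trimmed mean of M values) factors and tested in edgeR 4.0.16 (R 4.3.3) by its quasi-likelihood method, with Benjamini-Hochberg adjustment over the 14758 genes tested and a threshold of 0.05; each adjusted p comes from it unless another tool is named. SE is the log2 fold change divided by the square root of F. CPM use TMM-scaled library sizes, and levels between genes were divided by exon length. Livers of the same group were further apart than sampling noise allows (chi-square per degree of freedom 26.3 to 80.7). No exact permutation test was used, since with 3 against 3 its p cannot go below 0.1.

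The members, gene lists and rules were chosen with earlier results of these data known. Members with a mean of at least 1 CPM are named; from each list, up to 4 passing genes by smallest p, and genes beyond these were named after their values were seen. Alternatives were DESeq2 1.42.0, limma-voom 3.58.1, relative log expression (RLE) factors, library totals, no filter, at least 50 counts in 3 libraries, protein-coding genes only, dropping the 20 genes with most counts, a replicate block, thresholds of 0.01 and 0.1, and leaving out each liver in turn. Summing copies with coding sequences at least 95% identical, summing hepatocyte markers without Alb and counting promoter matches within 1000 bases of the gene were chosen after seeing the data. The steps were tested on simulated counts. Promoter windows came from RefSeq (GRCm38.p6). Coding sequences from GENCODE M21 were compared in place of proteins, for which no table was used here. Figures were drawn with matplotlib 3.10.9.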

Additional observations from a re-analysis of the deposited data

How the results depend on the processing

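Over the other fits, 481 of 507 values for single members kept their direction and their side of the threshold, and 18 of the 22 members that rose kept their call in every fit at the threshold of 0.05. The exceptions were Cyp2a5, Cyp2d10, Cyp2d26 and Cyp2g1. At an adjusted p under 0.01, 17 members were higher, without these 4 and Cyp2c29. Summing close copies, not counted above, ended the calls of Cyp2a5 (adjusted p = 0.0619) and Cyp2a22 (adjusted p = 0.0651). With each liver left out in turn, 19 to 22 members were higher and 0 lower, and the ratio of the members' share of counts ran from 1.76 to 2.29. Of the genes in the related lists, drawn up with results known, 53 were higher and 21 lower, and 11 of the lower ones were myeloid markers. Over all genes tested, 11.9% were higher and 13.1% lower. The count of higher genes in the lists was 34 at an adjusted p under 0.01 and 43 to 54 without one liver. That of lower genes was 35 with library totals and 16 to 23 without one liver. Values that changed sign belonged to members that did not pass. With library totals Cyp2d9 stood at −0.043, Cyp2j6 at −0.14 and Cyp2u1 at −0.26 (log2), and with the stricter filter Cyp2u1 stood at −0.013. Without one liver Cyp2c55 ran from −0.85 to 0.076, with the positive value without control liver 3, and Cyp2u1 from −0.088 to 0.19. The cause was not tested.

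The mouse numbers did not pair the livers: deviations of same-numbered mice correlated at −0.03, 0.04 and −0.02. With the number as a replicate block, 20 members were higher and 0 lower, with an adjusted p of 0.0533 for Cyp2d26, and 47 genes of the related lists were higher and 24 lower. At 18428224 counts in the smallest library, values of members below 1 CPM rest on few counts.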
